A study of Homo sapiens with 4 samples.

Results

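The longest transcription units of the human genome were examined one by one in nascent RNA after loss of the cohesin subunit RAD21. They were chosen by span alone: every protein-coding gene of the deposited table whose length is at least 500 kb, which gave 272 genes of 60048 in all and of 19874 that are protein-coding. RNA made during a short pulse of 5-ethynyl uridine (EU), a uridine analogue, was captured and sequenced (EU-seq) from HCT116 cells, an established colorectal carcinoma line. All 4 libraries come from the genotype RAD21-mAC, in which RAD21 carries a degron tag, so the control cells carry the tag too. Cells given DMSO form the control group (2 libraries). RAD21 was depleted in the auxin group (2 libraries) by a 3 h exposure to the auxin indole-3-acetic acid at 0.5 mM, and both groups were pulsed with 0.5 mM EU for 20 min. The labels do not say whether the libraries of a group came from separate cultures or how many clones were used, so p-values measure the spread between these libraries, which may be technical.

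As background, RNA polymerase II needs hours to cross a gene of this size, and its progress depends on elongation factors, on topoisomerases that relieve torsion, and on the masking of early polyadenylation sites. Cohesin is a ring-shaped complex that extrudes chromatin loops and is stopped by the protein CTCF. Many very long human genes encode adhesion molecules, receptors and scaffolds of neurons and muscle and are little transcribed in epithelial cells, while others have housekeeping roles in signalling, trafficking or metabolism. Several lie in common fragile sites, regions prone to breakage under replication stress. The series title concerns the part of cohesin in the release of paused polymerase and in processive elongation, and the comparison of auxin with control in these genes asks how transcription units most exposed to a loss of processivity responded.

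The table gives 1 scaled signal per gene and library. The interval over which it was counted is not given, and signal per kb here divides it by the whole span of the gene. Library totals on the deposited scale ranged from 61135244 to 93113007, and the divisors that brought the libraries to a common scale ranged from 0.816 to 1.21. A global rise or fall of nascent RNA is lost in that scaling. RAD21 itself, whose RNA the degron does not target, was at 5154 and 7190 in control and 5893 and 6264 in auxin on the common scale, so the RNA neither checks the labels nor measures the depletion. All 7 epithelial markers carried signal, at 112 to 2063 per kb, with a summed signal of 61479 and 68913 in control and 61021 and 63292 in auxin. Single markers differed in direction: CDH1 was at 11060 and 11199 in control and 16109 and 16554 in auxin, whereas EPCAM, KRT8, KRT18 and KRT19 were lower in both auxin libraries. The 8 markers of other cell types lay between 0.078 and 45.6 per kb, none at 0 in every library, and the uppermost was COL1A1. Their sum was 1274 and 1450 in control and 1665 and 1827 in auxin, and the part of this difference in the results below was not tested.

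A single long gene passed the test, THSD4, and its RefSeq start windows are shown because the gene has 1 value and several starts. How transcripts from each start enter that value is not given. Each window spans 300 bases, 250 before and 50 after a start, on the plus strand of chromosome 15 (GRCh38.p14). Capitals mark matches, on either strand, to 4 motifs searched by script: TATAAA (the TATA box), GCGTG (the core bound by the aryl hydrocarbon receptor), TGANTCA (the AP-1 site) and a reduced form of the CTCF core. The first window (chr15:71096644-71096943) belongs to a start 58 bases before the table's start of THSD4. The next (chr15:71115221-71115520) belongs to a start 18.5 kb inside the gene, and the last (chr15:71546986-71547285) to a start 450 kb inside it.
THSD4 outer start: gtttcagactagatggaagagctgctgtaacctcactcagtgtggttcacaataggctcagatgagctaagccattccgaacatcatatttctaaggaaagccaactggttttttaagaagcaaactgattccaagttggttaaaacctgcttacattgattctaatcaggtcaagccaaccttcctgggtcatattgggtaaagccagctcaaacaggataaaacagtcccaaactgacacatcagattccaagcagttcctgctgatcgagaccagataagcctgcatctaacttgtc
THSD4 start at 18.5 kb: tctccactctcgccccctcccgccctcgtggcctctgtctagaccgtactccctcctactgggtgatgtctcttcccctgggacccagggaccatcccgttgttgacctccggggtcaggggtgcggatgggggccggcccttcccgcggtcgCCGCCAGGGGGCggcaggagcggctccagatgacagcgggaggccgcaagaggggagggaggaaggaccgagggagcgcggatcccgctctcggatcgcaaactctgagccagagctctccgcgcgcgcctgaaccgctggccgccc
THSD4 start at 450 kb: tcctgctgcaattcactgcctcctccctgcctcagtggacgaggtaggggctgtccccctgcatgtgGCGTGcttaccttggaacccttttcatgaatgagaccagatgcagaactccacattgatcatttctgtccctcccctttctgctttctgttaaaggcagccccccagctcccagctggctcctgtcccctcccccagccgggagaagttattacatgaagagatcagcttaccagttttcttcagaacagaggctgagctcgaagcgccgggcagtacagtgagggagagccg
The outer window held 2 CpG dinucleotides and no match to any of the 4 motifs. The window at 18.5 kb held 28 CpG and 1 match to the reduced CTCF core, and the window at 450 kb held 7 CpG and 1 match to GCGTG. A match is a run of letters and not evidence of binding, and no data on binding were used here.

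Over the long genes as a group, 226 had at least 1 RefSeq window and 123 had more than 1, up to 10. For 190 a window lay within 1000 bases of the start in the table. In those 190 windows the median CpG count was 24, against 14 in all 34943 RefSeq windows. The reduced CTCF core occurred in 13.2% of the 190 windows and in 10.6% of all windows, GCGTG in 53.7% and 36.5%, TATAAA in 8.42% and 11.6%, and TGANTCA in 4.74% and 7.72%. Over all 522 RefSeq windows of the long genes, which include starts further inside them, the median CpG count was 12. The reduced CTCF core occurred in 10.5% of the 522, GCGTG in 39.5%, TATAAA in 10.7% and TGANTCA in 9.39%. These shares are given as a description of the start regions.

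Most long genes carried little nascent signal. On the common scale their mean signal per kb of span ranged from 0.219 to 116, with a median of 0.885 and quartiles of 0.485 and 4.41, whereas the median of all tested protein-coding genes was 63.2. All 272 nevertheless passed the filter on low values, because that filter acts on the summed signal of a gene and not on its density. Of the 272 genes, 80 reached 3 per kb, a limit set after the values were seen, and these held 87.1% of the signal of the group. Among the 144 genes under 1 per kb, signal and span had a Spearman's rho of 0.73 across genes, which share their libraries. Whether signal at that level is transcription of the genes was not tested.

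THSD4 encodes a matrix protein with thrombospondin repeats that associates with fibrillin microfibrils. The gene (ENSG00000187720, plus strand, GRCh38 chromosome 15, 71096952 to 71783383) spans 686 kb, introns included, and carried 24.6 per kb. Control libraries stood at 21625 (replicate 1) and 20737 (replicate 2), and auxin libraries at 12192 and 13101. Both auxin libraries lay below both control libraries, and the replicates of each group were close together, with means of 21181 ± 628 for control and 12647 ± 642 for auxin (SD, n = 2 libraries each). THSD4 fell by 0.74 on the log2 scale, a fold change of -0.74 (SE 0.11, 95% interval -0.99 to -0.50), with a limma adjusted p of 0.0146 over all genes tested. Without control replicate 2 the fold change was -0.78 and the limma adjusted p 0.0502, which missed the threshold, and on the deposited scale, with no further scaling, THSD4 at -0.76 did not pass the test. No other tested protein-coding gene overlaps THSD4.

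The neighbours of THSD4 did not pass the test. LRRC49, which ends 43.3 kb before it, was at 1069 and 1223 in control and 1223 and 1307 in auxin, or 0.14 on the log2 scale (95% interval -0.24 to 0.53). NR2E3, a photoreceptor nuclear receptor gene that starts 27.2 kb after it, had a log2 fold change of 0.35 (95% interval -0.23 to 0.92). Inside THSD4, 4 rows on the opposite strand were tested, and none passed. The lncRNA rows CT62, 15.9 kb from the start, and AC108861.1, 452 kb from the start, had log2 fold changes of -0.39 (SE 0.40) and -0.69 (SE 0.47). The processed pseudogenes HMGB1P6 and AC064799.1, which carried far more signal at 1215 and 1322 per kb, had 0.070 (SE 0.29) and 0.036 (SE 0.21).

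**Figure D1:**
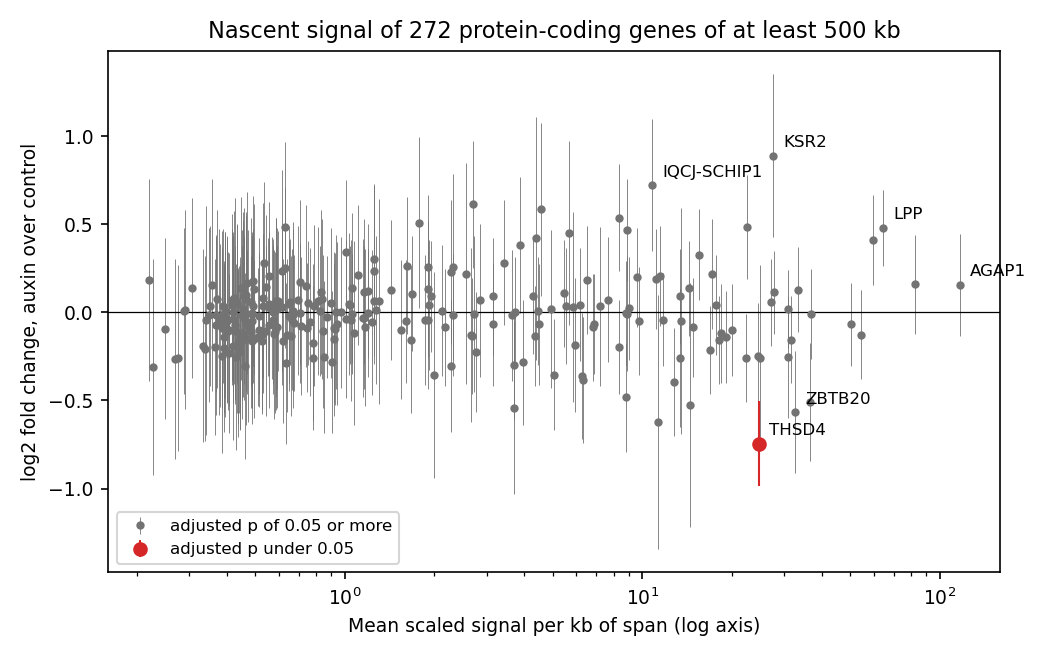
Log2 fold change of auxin over control (vertical axis) against mean scaled signal per kb (horizontal axis, log scale) for the 272 protein-coding genes of at least 500 kb. Points are genes, bars are 95% intervals from limma, and THSD4 at -0.74 is the only gene with an adjusted p under 0.05.

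The 8 long genes with the most signal per kb encode proteins of varied function. AGAP1, an Arf GTPase-activating protein of endosomes, was the most strongly transcribed at 116 per kb, with 71251 and 68318 in control and 66448 and 90952 in auxin. The auxin libraries lay on either side of the control libraries, and the log2 fold change was 0.16 (95% interval -0.13 to 0.44). DOCK1, an activator of the GTPase RAC, showed the same layout, at 41943 and 42747 in control and 41144 and 54249 in auxin (0.16, -0.12 to 0.44). FAF1, an adaptor in ubiquitin-dependent degradation, ADK, the adenosine kinase, and DENND1A, an activator of the GTPase RAB35, had log2 fold changes of -0.13, -0.068 and -0.0096, with groups that overlapped. For these 5 genes the 95% intervals stayed within 1.5-fold either way.

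LPP, a LIM-domain protein of focal adhesions, came nearest to the threshold on the upper side. Its scaled signal was 38199.8 and 34653 in control and 49151 and 52360 in auxin, so both auxin libraries lay above both control libraries. The log2 fold change was 0.48 (SE 0.097, 95% interval 0.26 to 0.70), and the limma adjusted p of 0.062 missed the threshold. It was 0.0313 when libraries were scaled by size only and 0.0134 without auxin replicate 1. TRAPPC9, a subunit of a vesicle-tethering complex, had 40077 and 34414 in control and 45432 and 53760 in auxin (0.41, 95% interval 0.16 to 0.67, limma adjusted p = 0.182), and passed the test without auxin replicate 1 (0.54, limma adjusted p = 0.0106). KAZN, a desmosome-associated protein, had 25880 and 18780 in control, which differ by more than the auxin libraries at 16420 and 14650 (-0.51, 95% interval -0.84 to -0.17, limma adjusted p = 0.208). Leaving out control replicate 1 brought KAZN to -0.27, and leaving out auxin replicate 1 brought it to -0.58 with a limma adjusted p of 0.0296.

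**Figure D2:**
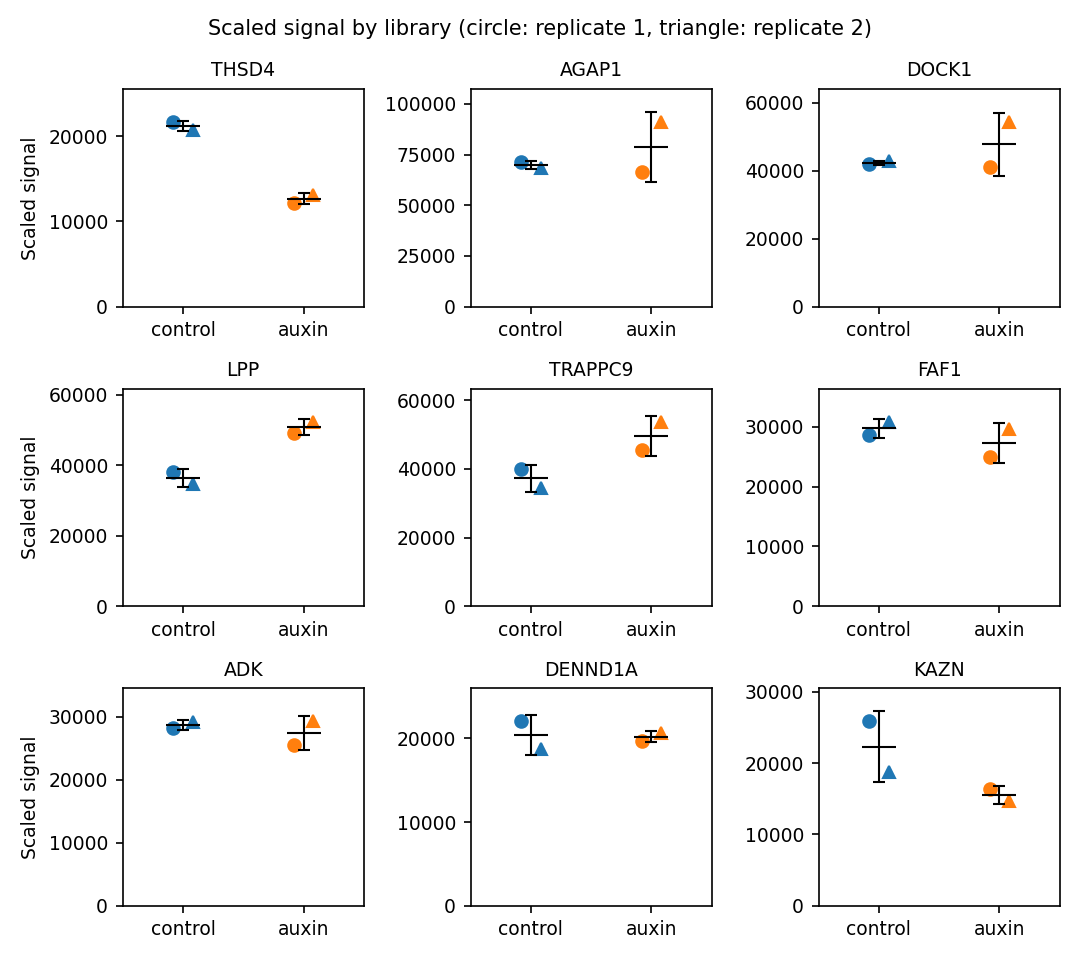
Scaled signal (vertical axes, each from 0) in the 2 control and 2 auxin libraries for THSD4 and the 8 long genes with the most signal per kb. Circles are replicate 1, triangles replicate 2, and the black marks are the mean ± SD. THSD4 shows groups far apart relative to their spread, while AGAP1 and DOCK1 have auxin libraries on either side of the control.

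Over all 272 long genes, 1 passed the limma threshold (adjusted p under 0.05), which is 0.368% of them, against 0.732% of all 39464 tested genes and 1.17% of tested protein-coding genes. The called gene was lower, as were 0.4% of all tested genes and 0.681% of protein-coding genes. None was called higher, against 0.332% of all tested genes and 0.49% of protein-coding genes. At an unadjusted limma p under 0.05, 22 long genes (8.09%) were found, against 10.2% of all tested genes and 14.6% of protein-coding genes. Of these, 12 were higher (background 4.75% of all tested and 6.15% of protein-coding genes) and 10 lower (background 5.47% and 8.4%). Both shares of the long genes are below the background, but they differed with level. Of the 22, 19 were among the 80 long genes of at least 3 per kb, a larger share than the 10.2% and 14.6% of the background. The 192 long genes below that level held 3, a smaller share than either. The low share of the whole group therefore comes with its many genes of little signal. A background at a like level was not worked out. The median log2 fold change of the long genes was -0.013, beside 0.0089 over all tested genes and -0.011 over protein-coding genes. With single libraries left out, the median lay between -0.042 and 0.011. No long gene had a point estimate of 2-fold or more in the fit of all libraries, and 5 had one of at least 1.5-fold. These were THSD4, PDE4B (-0.62), KSR2 (0.89), IQCJ-SCHIP1 (0.72) and KIAA1217 (0.61). All but THSD4 are named after their values were seen. Calls changed with single libraries. Without control replicate 1, 2 long genes were called, both lower (0.735%, against 0.88% of all tested genes), and without control replicate 2 none (against 0.341%). Without auxin replicate 1, 9 were called, 7 higher and 2 lower (3.31%, against 1.76%): THSD4, KAZN, KSR2, IQCJ-SCHIP1, TRAPPC9, LPP, FRMD4A, RGS6 and SNX29. Without auxin replicate 2, 4 were called, all lower (1.47%, against 1.39%): THSD4, ZBTB20, MAGI1 and PDE4B. FRMD4A, RGS6, SNX29 and MAGI1 are named only for these calls, after their values were seen. The share of long genes called was thus above that of all tested genes in 2 of these 4 settings.

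The intervals bound what could have been missed. The 95% interval of the log2 fold change lay wholly within 2-fold in either direction for 265 of the 272 genes, and wholly within 1.5-fold for 176. Among the 80 genes of at least 3 per kb these numbers were 73 and 51. The median margin on each side of the estimate was 0.43 on the log2 scale for all long genes and 0.31 for those 80. With 2 libraries a group, a fall in a single gene of less than about that margin was therefore not detectable, and larger changes could be missed too. The intervals are not adjusted for the number of genes tested, whereas the calls are. LPP, at 0.48 with a 95% interval of 0.26 to 0.70, had a limma adjusted p of 0.062.

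Next, each gene's difference was set against the differences between replicates of 1 group. In 45 long genes both auxin libraries lay above both control libraries, and in 56 both lay below, or 16.5% and 20.6%. The same shares were 18.6% and 19.6% over all tested genes and 20.5% and 23.8% over protein-coding genes. The auxin difference exceeded both replicate differences in 63 long genes (23.2%), against 26.9% of all tested genes and 32.4% of protein-coding genes. Of the 63, 27 were among the 80 long genes of at least 3 per kb and 36 among the 192 below that level. Across the long genes the SD of the log2 fold change was 0.21, that of control replicate 1 minus control replicate 2 was 0.26, and that of auxin replicate 1 minus auxin replicate 2 was 0.26. The fold change is a difference of means of 2 libraries and varies less by construction. The medians of the replicate differences were 0.020 and -0.053, so the median shift with auxin was smaller than either. The shares depended on the scale, for long genes and for all tested genes. With scaling by library size only, 58 of the 272 lay above and 41 below, beside 21.8% and 16.7% of all tested genes. On the deposited scale 8 lay above and 13 below, beside 8.51% and 12.3% of all tested genes.

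**Figure D3:**
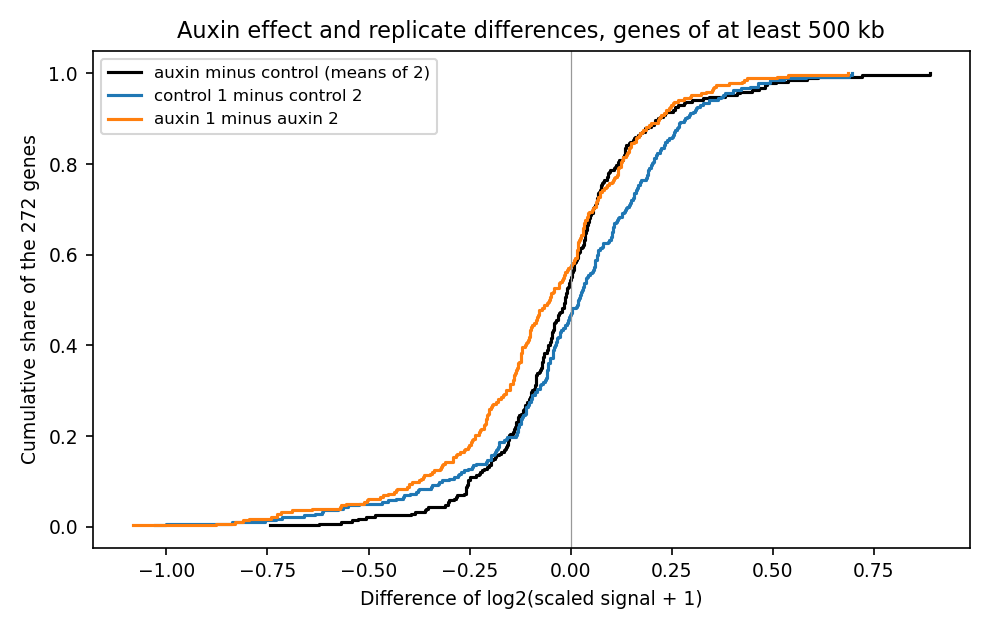
Cumulative share of the 272 long genes (vertical axis) by difference of log2(scaled signal + 1) (horizontal axis) for auxin minus control, control replicate 1 minus control replicate 2 and auxin replicate 1 minus auxin replicate 2. The 3 curves cover a similar range, with SDs of 0.21, 0.26 and 0.26.

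Several long genes had clearly separated groups without passing the test, and the following were picked with their values in view. KSR2, a scaffold of the RAF-MEK-ERK cascade, had 9887 and 9529 in control and 13642 and 23669 in auxin. The auxin libraries were far apart, and the fold change of 0.89 with SE 0.21 (limma adjusted p = 0.104) was 0.49 without auxin replicate 2 and 1.29 without auxin replicate 1. IQCJ-SCHIP1, a readthrough gene whose span contains IQCJ and SCHIP1 and may share their signal, had 5816 and 7666 in control and 9703 and 12488 in auxin (0.72, SE 0.17, limma adjusted p = 0.103). KIAA1217 was at 1978 and 1654 in control and 2905 and 2633 in auxin (0.61, SE 0.16, limma adjusted p = 0.156). CEP112, a centrosomal protein, whose span overlaps AC004805.1, had very close replicates, at 4129 and 4136 in control and 5623 and 5799 in auxin (0.47, SE 0.13, limma adjusted p = 0.182). GMDS, which makes GDP-fucose, lay on the lower side, at 6221 and 6560 in control and 4230 and 4938 in auxin (-0.48, SE 0.14, limma adjusted p = 0.191). By contrast PDE4B, a cAMP phosphodiesterase, spread so widely between replicates (5288 and 10781 in control, 3620 and 6656 in auxin) that its fold change of -0.62 had an interval from -1.34 to 0.098. Replicate 2 was the higher library in both groups. With the replicate number as a block, PDE4B was called (limma adjusted p = 1.36e-07), as were 10.8% of all tested genes. The labels do not tie equal replicate numbers to each other.

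By role, the largest function list was that of neuronal and synaptic adhesion molecules, with 53 long genes. None passed the limma test, and the median log2 fold change was -0.017. At an unadjusted p under 0.05, 1 was higher and none lower, beside 4.75% and 5.47% of all tested genes. Only 3 of the 53 reached 3 per kb, so nearly all lay below that level in this line. The gene with the smallest p was TENM3, a teneurin of cell contacts, at 737 and 886 in control and 948 and 1393 in auxin (0.51, SE 0.22, limma adjusted p = 0.454). That value was 0.23 without auxin replicate 2 and 0.79 without auxin replicate 1. The 21 receptors and channels had a median of 0.0086 and none passed the test. None had an unadjusted p under 0.05, beside 10.2% of all tested genes. RYR3, a calcium release channel, had the smallest p in that list, at 1494 and 1295 in control and 1136 and 1118 in auxin (-0.30, 95% interval -0.68 to 0.074).

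The 35 scaffold and cytoskeletal genes, which include LPP and DOCK1, had a median of -0.027. None passed the limma test. At an unadjusted p under 0.05, 3 were higher and none lower, beside 4.75% and 5.47% of all tested genes. Groups were apart upward in 8 and downward in 8 of the 35, where 18.6% and 19.6% of all tested genes were. Of the 29 kinases, phosphodiesterases, phosphatases and other enzymes listed with them, none passed the test, with a median of -0.050. At an unadjusted p under 0.05, 2 were higher and 3 lower. The shares over all tested genes were 4.75% and 5.47%, and over protein-coding genes 6.15% and 8.4%. Whether the list differs from them was not tested. Related receptor phosphatases differed in sign: PTPRM, which mediates homophilic adhesion, was at 5691 and 5682 in control and 7506 and 9081 in auxin (0.54, SE 0.14, limma adjusted p = 0.138), whereas PTPRK gave -0.40 with SE 0.14 (limma adjusted p = 0.304). PTPRK is named after its values were seen, and the difference between them was not tested.

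The list of transcription and RNA regulators, which also holds the trafficking genes TRAPPC9, LRBA and TBC1D5, counted 21 long genes. None of these 21 passed the limma test, and the median of the mixed list was -0.014. At an unadjusted p under 0.05 the trafficking gene TRAPPC9 was higher, no regulator was higher and ZBTB20 was lower. The shares of all tested genes were 4.75% higher and 5.47% lower. ZBTB20, a zinc-finger repressor, was at 27306 and 37731 in control and 19574 and 23966 in auxin (-0.57, SE 0.16, limma adjusted p = 0.173). Both auxin libraries lay below both control libraries, but the control libraries were far apart. Replicate 2 was the higher library in both groups. With the replicate number as a block, ZBTB20 had a limma adjusted p of 9.53e-08. Leaving out control replicate 1 gave a limma adjusted p of 0.0325 for ZBTB20, and leaving out auxin replicate 2 gave 6.41e-04.

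Genes of common fragile sites overlap the other lists and numbered 32. None passed the limma test, and the median was -0.0024. An unadjusted p under 0.05 was found for 1, beside 10.2% of all tested genes. Groups were apart upward in 9 and downward in 3 of the 32, beside the same 18.6% and 19.6% of all tested genes, and whether this split differs from theirs was not tested. IMMP2L, a subunit of a mitochondrial peptidase, had the smallest p, at 7028 and 5673 in control and 5496 and 4396 in auxin (-0.36, SE 0.16, limma adjusted p = 0.481). FHIT, the gene of the FRA3B site, was at 6682 and 5640 in control and 5165 and 4808 in auxin (-0.30, 95% interval -0.61 to 0.011). WWOX, an oxidoreductase gene at FRA16D, was at 5228 and 4672 in control and 4746 and 5212 in auxin (0.0091, 95% interval -0.30 to 0.32), so its groups overlapped almost wholly. FHIT and WWOX are named after their values were seen. The other 102 long genes, in no list, had a median of -0.012 and included THSD4.

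Span within the group was examined next. The 143 genes of 500 to under 750 kb had a median log2 fold change of -0.0033 and included the called gene, the 68 genes of 750 to under 1000 kb had -0.034, and the 61 genes of at least 1000 kb had -0.013, with no called gene in the last 2 classes. Protein-coding genes of 200 to under 500 kb had -0.012, with 32 of 1049 called (11 higher, 21 lower), and those of 100 to under 200 kb had -0.014, with 54 of 1955 called. The classes differ in level as well as span: the median signal per kb was 28.4 at 100 to under 200 kb, 8.26 at 200 to under 500 kb, 1.25 at 500 to under 750 kb and 0.572 at 1000 kb or more. Among genes of at least 3 per kb, 1 of 52 was called at 500 to under 750 kb, 32 of 641 at 200 to under 500 kb and 52 of 1502 at 100 to under 200 kb. Of the 6 genes of at least 1000 kb at that level, 1 had groups apart upward and 3 downward, beside 24.0% and 33.1% of genes of 200 to under 500 kb at that level. Their median was -0.17, while the median replicate difference of these 6 genes was 0.18 for control and -0.063 for auxin.

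**Figure D4:**
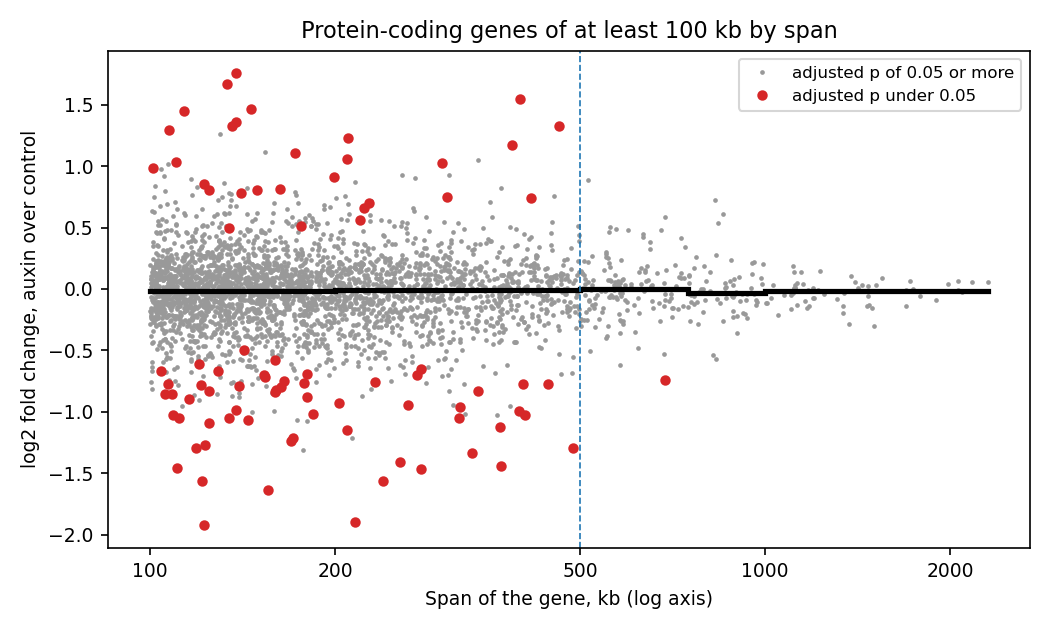
Log2 fold change of auxin over control (vertical axis) against gene span in kb (horizontal axis, log scale) for protein-coding genes of at least 100 kb. Grey points are genes with an adjusted p of 0.05 or more, red points genes under 0.05, black bars class medians, and the dashed line marks 500 kb. To the right of that line 1 gene is red and the class medians lie between -0.034 and -0.0033.

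The 3 longest genes all carried little signal. CNTNAP2, a neurexin-family gene of 2304198 bases, was at 1660 and 1729 in control and 1686 and 1836 in auxin (0.054 on the log2 scale). DLG2, a postsynaptic scaffold, was at 1361 and 1411 in control and 1429 and 1455 in auxin (0.057). DMD, the dystrophin gene, was at 1809 and 1864 in control and 1753 and 1854 in auxin (-0.027). At 0.65 to 0.87 per kb these genes lie below the group's median of 0.885, and the intervals of all 3 stayed within 1.5-fold. They also lie below the median of 1.42 per kb of the 8 markers of other cell types. Whether signal at this level is transcription of these genes was not tested.

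The genes at the border of the rule were alike in level only in part. Just inside it, AFF2 (500047 bases), MDGA2 and PPFIA2 had 0.267, 0.737 and 0.385 per kb and log2 fold changes of -0.26, 0.15 and -0.25. Just outside it, DIAPH3 (498346 bases), CPQ and ITPR2 had 19.4, 1.52 and 3.47 per kb and log2 fold changes of 0.14, 0.44 and 0.39. None of these 6 genes passed the limma test, and CPQ alone had an unadjusted p under 0.05 (0.0426).

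Because the table has 1 value per gene, position along a long gene could be read only from other rows nested in it. There were 1177 rows of at most 20 kb and of types other than protein-coding inside 262 long genes, of which 346 passed the filter. In hosts of at least 3 per kb, the median signal per kb of all nested rows relative to the host was 1.37 on the host's strand and 0.922 on the other strand. Without processed pseudogenes it was 0.958 and 0.675. Over the tested rows alone, in hosts of any level, it was 7.32 and 2.91, but the filter keeps short rows only where they hold much signal. Rows on the opposite strand thus carried signal too. The labels name a directional kit, but whether genes were quantified by strand is not given in the sources used here. None of the 346 nested rows passed the limma test, against 0.732% of all tested genes. Of the 346, 10 had an unadjusted p under 0.05, against 10.2% of all tested genes. With each host cut into 3 equal parts, the median log2 fold change on the host's strand was 0.12 in the first part (55 rows), 0.079 in the middle part (29) and 0.019 in the last part (42), while control replicate 1 minus control replicate 2 gave -0.39, -0.35 and -0.16. On the other strand the order was not the same, at 0.028, 0.033 and 0.13.

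For 12 hosts the signal per kb of nested rows could be compared between the last and the first part in every library. The median log2 ratio of last over first part was -0.80 and -0.73 in control and -0.82 and -0.73 in auxin. The mean difference was -0.0065 (two-sided exact permutation p = 1, where the smallest that 2 against 2 libraries allow is 0.333). Rows on the other strand gave, over 17 hosts, -1.27 and -1.28 in control and -1.55 and -1.74 in auxin, so both auxin libraries lay lower, by 0.37 in the mean (exact permutation p = 0.333, the smallest possible). Among the 12 hosts compared on their own strand, auxin lay above control in both libraries in 2, AF241726.1 and MAGI1, and below in 1, PRKCA. A background share for such ratios was not worked out. Only in AF241726.1 did the difference (0.67) exceed both replicate differences, and the hosts are named after their values were seen. Nested rows can carry transcription and multiply mapped reads of their own, so this is a coarse measure of position.

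As a share of the whole library, the long genes took 1.35% and 1.36% of the summed signal in control and 1.34% and 1.48% in auxin. Control libraries averaged 1.36% ± 0.0086 and auxin libraries 1.41% ± 0.0997 (SD, n = 2 libraries each), and the difference of 0.048 points was under the SD of the auxin pair (two-sided exact permutation p = 1). Auxin replicate 2 held the largest share. Of the 8 long genes with the most signal per kb, AGAP1, DOCK1, LPP, TRAPPC9 and ADK were also highest in that library. FAF1, DENND1A and KAZN were not. The part of these genes in the share was not tested.

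Genes of factors on which elongation through long units depends were read beside these results, from a list of 26 with CDK9, CDK12, topoisomerases, the PAF1 complex, U1 proteins and cleavage factors. None passed the limma test, and 1 was lower at an unadjusted p under 0.05, beside 8.4% of protein-coding genes. The median log2 fold change was -0.031. Groups were apart upward in 1 and downward in 10 of the 26, beside 20.5% and 23.8% of protein-coding genes. That difference was not tested. The smallest p belonged to SUPT4H1, a subunit of the elongation factor DSIF, at 3213 and 3431 in control and 2484 and 2577 in auxin (-0.39, SE 0.14, limma adjusted p = 0.343).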

How the data were processed

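EU-seq was measured in 4 libraries, grouped by their titles. Per the submitters' processing notes, Trimmomatic 0.39, Bowtie2 2.4.5, deepTools 3.5.1 and the builds hg38 and dm6 were used. RNA of fly S2 cells was added before capture, per the labels' protocols. How gene values were made, and whether the fly RNA set their scale, is not given in the sources used here. The authors deposited 1 table with a scaled signal per gene and library, gene coordinates and the gene length in bases, the other measure used. Low values are whole multiples of a step that differs between libraries, but 1 step is rare and 2 or 3 steps are common in genes of 1000 bases or more. The steps were therefore not taken as reads, the depth in reads is unknown, no counting interval is given, and the count model planned for whole counts was not used. A misspelt control column was assigned by its replicate number. Starts count from 0 in the table and are printed 1 higher: of 266 long genes matched to RefSeq by symbol, 154 starts then equalled RefSeq's and all spans overlapped.

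Genes entered the fit when 2 or more libraries held a value worth 10 at the median library total and the 4 values summed to 15 or more. Trimmed means of M-values (30% and 5% trimmed) set the scale of each library, and log2(value + 1) was fitted with limma 3.58.1 in R 4.3.3 (lmFit, eBayes with trend, prior degrees of freedom 8.23) over all tested genes, with Benjamini-Hochberg adjustment at 0.05. Fold changes are on that log2(value + 1) scale. The procedure was also run on simulated libraries drawn independently of each other, and no result here rests on that run. Summaries and figures used Python 3.11.15, pandas 2.3.3 and matplotlib 3.10.9.

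Members and lists were chosen with earlier results of these data known. Named are called members, the 8 with the most signal per kb, the 3 longest, the smallest p of each list and 3 genes on either side of the length limit. Alternatives were other scalings, filters, pseudocounts of 0.1 and 10, the replicate number as a block, a loess correction for span within libraries, other length limits and leaving out each library.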

Additional observations from a re-analysis of the deposited data

How the results depend on the processing

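By the fit described above, 1 long gene was called (0.368%, against 0.732% of all tested genes). The count became 2 with scaling by library size only (LPP added, 0.735% against 0.684%). It was 0 on the deposited scale with no further scaling (against 0.139%), 7 with a limit of 400 kb and 0 with a limit of 750 kb. It ranged from 0 to 9 without single libraries, where the lone library of a group is assumed to vary like the others, while the share of all tested genes called ranged from 0.341% to 1.76%. THSD4 stayed lower in every setting run, from -0.69 to -0.80 without single libraries, but missed the threshold on the deposited scale and without control replicate 2. The number of long genes with groups apart fell from 101 to 21 on the deposited scale. The shares of all tested genes above and below fell too, from 18.6% and 19.6% to 8.51% and 12.3%. With the replicate block, 26 long genes were called (9.56%), 14 higher and 12 lower, against 10.8% of all tested genes (4273). Of the called long genes, 16 stood in a function list, where the same fit without the block called none. Without single libraries the function lists held from 0 to 4 called genes. Nothing in the labels ties equal replicate numbers to a common day or culture, 2 pairs are too few to tell, and the differences between replicates correlated between control and auxin (Pearson's r 0.589 across the long genes, 0.462 across genes with a mean of at least 50, 0.231 across all tested genes). Along the long genes, the difference in the ratio of last over first part was 0.13 with hosts cut into 2 equal parts in place of 3, -0.37 with rows on the other strand and -0.54 with processed pseudogenes and small RNAs only (3 hosts), against -0.0065, and ranged from -0.051 to 0.038 without single libraries. The causes were not tested. The depth in reads is unknown, and 2 libraries a group leave a median margin of 0.43 on the log2 scale in single long genes.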
